A study of Mus musculus with 16 samples.

Results

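The genes described here are 10 transcripts read in kidney studies as signs of injured tubules or of fibrinogen made outside the liver: Havcr1, Lcn2, Clu, Spp1, Fga, Fgb, Fgg, Vcam1, Timp1 and Cdkn1a. They were chosen with earlier results of these data known. Their rows were found by symbol, by matching the Ensembl identifiers of the deposited count table to GENCODE M21, and make up 10 of its 55414 genes. All 10 passed the filter on low counts, which kept 16126 genes, and all had counts in each of the 16 libraries. The counts were lowest for Timp1, at 13 to 49 per library, and highest for Spp1, at 18138 to 39680.

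Kidney cortex RNA was sequenced from wild-type male C57BL/6J mice. Treadmill running was forced, for 40 minutes at 70% of capacity. It had gone on for 1 day (labelled 24 h), 1 week (labelled 1 wk) or 2 weeks (labelled 2 wk). The labels do not say whether 24 h means a run within 1 day or death 24 h after a run. A control group was sedentary, and each of the 4 groups had 4 libraries of polyadenylated RNA. The sources used here give neither the age of the mice nor whether each library came from its own animal, and the p-values rest on the spread between libraries, part of which may be technical. Library titles carry a letter that differs between all exercised and all sedentary libraries and is not explained, so what it marks and exercise cannot be told apart.

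Havcr1 encodes kidney injury molecule-1, a membrane receptor with which damaged proximal tubule cells take up dying cells. Lcn2 encodes the secreted iron-siderophore carrier NGAL, Clu the extracellular chaperone clusterin, and Spp1 the matrix phosphoprotein osteopontin, and all of these are known to be induced in tubules after ischaemic or toxic damage. Fga, Fgb and Fgg encode the chains of fibrinogen, the clotting protein that the liver secretes as an acute phase protein under interleukin-6 and that injured kidney tubules are also known to express. Vcam1 encodes an adhesion molecule of activated endothelium and of tubule cells that repair poorly, Timp1 a secreted inhibitor of metalloproteinases, and Cdkn1a the cell cycle inhibitor p21, a target of p53.

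Total counts were 39766260 to 66852397 per library. The cortex labels fitted the summed counts of proximal tubule markers, 51100 to 67500 CPM in every library. Most of this sum was Kap, with a mean over all libraries of 37100 CPM. CPM is a gene's counts relative to the library total, scaled by TMM, an adjustment for differences in RNA composition. Some libraries stood apart in markers of other tissues. Urothelial and papillary markers (Upk1a, Upk1b, Upk2, Upk3a and Krt5 summed) were 22.3 CPM in 1 wk library 3 and 2.12 to 2.66 CPM in the other 1 wk libraries. They were 0.672 to 12.2 CPM at 24 h, with the 12.2 CPM in library 3, and 0.267 to 5.07 CPM at 2 wk, against 4.34 to 12.3 CPM in sedentary libraries. Adipocyte markers were 5.98 CPM in 2 wk library 1 and at most 0.845 CPM elsewhere, and adrenal cortex markers were 3.46 CPM in 1 wk library 1 and at most 0.486 CPM elsewhere. Erythroid markers were 1230 CPM in 1 wk library 3 (342 to 640 CPM in the other 1 wk libraries). They were 1630 CPM in 2 wk library 4 (677 to 846 CPM in the other 2 wk libraries), against 336 to 593 CPM in sedentary libraries. At 2 wk 5 of 5 erythroid markers lay above all sedentary libraries, a property met in that direction by 2.29% of all genes.

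None of the 10 genes passed the test at an adjusted p of 0.05 (edgeR's quasi-likelihood test, Benjamini-Hochberg adjustment over 16126 genes) in any comparison of a duration with sedentary mice. The background was the same, since 0% of all genes tested passed in each of these 3 comparisons. At an unadjusted p under 0.05, 1439 genes passed at 24 h, 975 at 1 wk and 1170 at 2 wk. DESeq2 made 77, 14 and 35 calls among all genes in the same order of durations, of which Clu at 2 wk was the only one among the 10. Levels and differences of the 10 genes are given with their errors. In bulk tissue, fewer cells of a type and less RNA per cell cannot be told apart.

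Since the 10 genes were chosen with earlier results of these data known, their numbers beside the shares of all genes are descriptions. They are not an independent test. At 24 h all 10 log2 fold changes against sedentary were positive, from 0.14 to 1.63 with a median of 0.58, while 49% of all genes were positive and their median was -0.00458. Of the 10, Havcr1, Lcn2, Clu, Spp1, Fga, Fgb and Cdkn1a, 7 genes, were higher at an unadjusted p under 0.05, a rule that 4.49% of all genes met. That number was 4 without 24 h library 4. It was 6 without 24 h library 3 and 1 wk library 3, a choice made after seeing the data. These were the exercised libraries highest in urothelial markers, whose part in the levels of the 10 genes was not tested. At 12.2 CPM, 24 h library 3 lay inside the sedentary range of these markers. All 10 stayed positive in both cases. Of 10 proximal tubule markers 0 had a positive log2 fold change (median -0.16), and their sum was 51100 to 59700 CPM at 24 h, against 58400 to 65600 CPM in sedentary libraries. Most of that sum was Kap, at 34400 ± 3580 CPM at 24 h, against 40400 ± 2360 CPM in sedentary mice. Of 6 fibroblast and smooth muscle markers 5 were positive (median 0.50, 3 at an unadjusted p under 0.05), and their sum was 111 to 183 CPM at 24 h, against 94.8 to 123 CPM in sedentary libraries. Of 6 macrophage markers 5 were positive (median 0.18). None of these passed after adjustment, and their part in the levels of the 10 genes was not tested. At 1 wk 8 of 10 were positive, against 51.1% of all genes, with a median of 0.15, and 1 gene was higher and 1 lower at that p, against 2.33% and 3.72% of all genes. Without 1 wk library 3, the library highest in urothelial markers and highest of its group in erythroid markers, the positive ones numbered 5 and 2 genes were lower at that p. The number lower was 0 without 1 wk library 2 or 4 or sedentary library 3 or 4. At 2 wk 7 of 10 were positive, against 52.1% of all genes, with a median of 0.06, and 1 was higher at that p, against 4.02% of all genes. Without 2 wk library 4, the highest in erythroid markers, the positive ones numbered 4. The number higher at that p was 2 without 2 wk library 3, sedentary library 4 or any 1 of 24 h libraries 1, 2 and 3, and with DESeq2, voom or the replicate block. It was 2, with 2 lower, when the compared groups were fitted alone or 24 h library 3 and 1 wk library 3 were left out together. These 3 comparisons share their sedentary libraries.

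**Figure D1:**
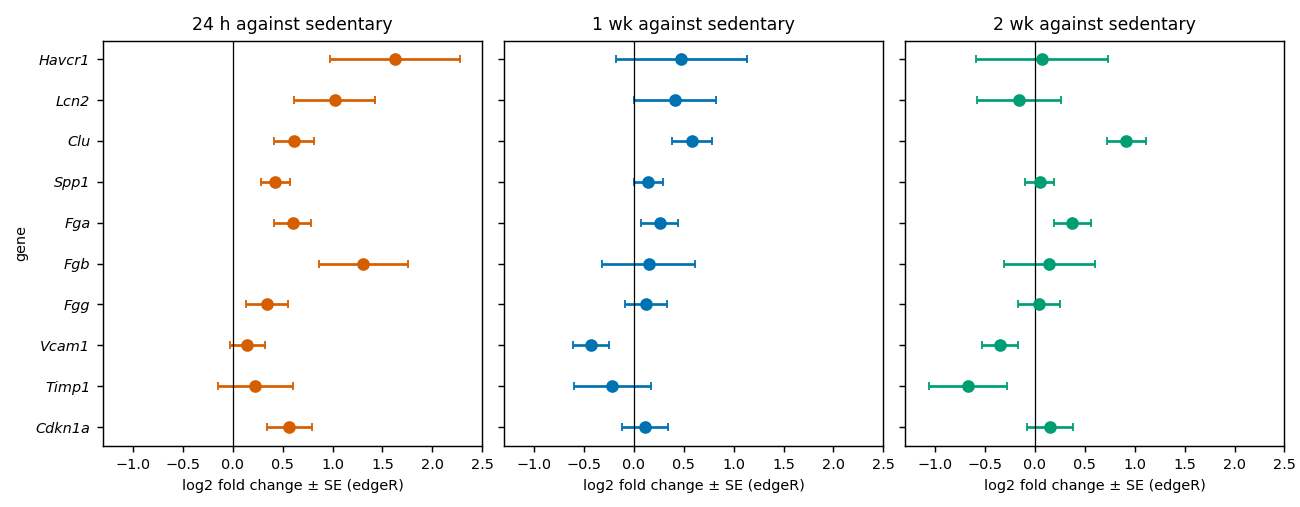
Log2 fold change of each of the 10 genes in 24 h, 1 wk and 2 wk libraries over sedentary libraries, with bars for the standard error of the edgeR fit of 16 libraries. All 24 h points lie above 0, and Clu alone has its largest value at 2 wk, 0.92.

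Havcr1 (chr11:46735080-46779578 on GRCm38, + strand) had 6.13, 3.42, 6.97 and 25.9 CPM in 24 h libraries 1 to 4, against 1.83, 3.09, 3.16 and 5.67 CPM in sedentary libraries 1 to 4. It had 2.15, 3.30, 10.7 and 3.12 CPM at 1 wk and 3.32, 1.42, 5.45 and 4.31 CPM at 2 wk. Libraries 1, 3 and 4 at 24 h and library 3 at 1 wk exceeded all sedentary libraries, and the other exercised libraries lay inside their range or below it. The 24 h mean was 10.6 ± 10.3 CPM, against 3.44 ± 1.61 CPM in sedentary mice (SD, n = 4 each). The log2 fold change was 1.63 ± 0.65 (SE, edgeR adjusted p = 0.488). Without 24 h library 4 it was 0.69, with an edgeR adjusted p of 0.81. Urothelial markers in 24 h library 4 summed to 1.12 CPM, below every sedentary library. At 1 wk the log2 fold change of Havcr1 was 0.48 ± 0.66 and at 2 wk 0.07 ± 0.66. Without 1 wk library 3 the 1 wk value was -0.26, and that library also had the highest urothelial markers, whose part in its Havcr1 level was not tested.

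Lcn2 (chr2:32384633-32388252, - strand) had levels of 2.95, 1.93, 4.67 and 6.60 CPM in 24 h libraries 1 to 4, against 2.09, 2.40, 1.41 and 2.07 CPM in sedentary libraries. They were 2.13, 2.04, 5.31 and 1.27 CPM at 1 wk and 1.55, 0.949, 2.22 and 2.48 CPM at 2 wk. Libraries 1, 3 and 4 of the 24 h group exceeded all sedentary ones, and library 2 lay inside their range. The 24 h mean was 4.04 ± 2.05 CPM, against 1.99 ± 0.42 CPM in sedentary mice (SD, n = 4 each), a log2 fold change of 1.02 ± 0.41 (SE, edgeR adjusted p = 0.48). Without 24 h library 4 the log2 fold change was 0.68. The 1 wk difference of 0.42 ± 0.41 was -0.14 without 1 wk library 3, the library with the highest urothelial markers, and the 2 wk difference was -0.16 ± 0.42. Neutrophils also carry Lcn2, and the summed neutrophil markers S100a8, S100a9, Ly6g, Retnlg, Csf3r and Mmp8 were 0.768 to 2.80 CPM at 24 h, against 0.732 to 2.11 CPM in sedentary libraries. The 3 neutrophil markers that passed the filter all had a positive log2 fold change at 24 h (median 0.36), 0 of them at an unadjusted p under 0.05. Ly6g, Mmp8 and Retnlg had at most 1, 3 and 11 counts in any library and were not tested. The part of neutrophils in the Lcn2 level was not tested.

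Clu (chr14:65968483-65981547, + strand) had 395, 351, 446 and 439 CPM in 24 h libraries, against 327, 279, 270 and 189 CPM in sedentary libraries, and these groups did not overlap. It had 329, 453, 459 and 358 CPM at 1 wk and 713, 303, 469 and 528 CPM at 2 wk. Groups failed to overlap in this direction for 3.55% of all genes at 24 h and 1.71% at 1 wk, so single genes with that property were common. At 1 wk the lowest runner stood at 328.6 CPM and the highest sedentary library at 327.4 CPM. At 2 wk library 2, at 302.9 CPM, lay inside the sedentary range, whereas library 1 was the highest of all 16. The log2 fold changes were 0.61 ± 0.20 at 24 h, 0.58 ± 0.20 at 1 wk and 0.92 ± 0.20 at 2 wk (SE, edgeR adjusted p = 0.341, 0.652 and 0.232). Of the 16126 genes, Clu had the 12th smallest p at 2 wk, 0.000204 before adjustment.

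The 2 wk value of Clu depended on the tool and on single libraries. DESeq2 gave a log2 fold change of 0.92 with an adjusted p of 0.00825, and leaving out 2 wk library 2 gave 1.09 with an edgeR adjusted p of 0.0376. Leaving out 2 wk library 1 gave 0.70 with an edgeR adjusted p of 0.797. Over all 24 alternatives the edgeR, voom and DESeq2 adjusted p for Clu at 2 wk ranged over 0.00825 to 0.797, and the log2 fold change over 0.70 to 1.09. Library 1 of the 2 wk group, highest in Clu, also had the highest adipocyte markers and the lowest urothelial markers, 0.267 CPM. Distal convoluted tubule markers (Slc12a3, Pvalb and Trpm6) summed to 551 to 686 CPM at 2 wk, against 355 to 534 CPM in sedentary libraries. Most of that sum was Slc12a3, at 566 ± 57.5 CPM at 2 wk, against 404 ± 68.2 CPM in sedentary mice. Pvalb did not rise, at 24.2 ± 4.97 CPM at 2 wk, against 24.8 ± 3.56 CPM in sedentary mice. Of the 3 markers 2 had a positive log2 fold change at 2 wk, 1 of them at an unadjusted p under 0.05. Collecting duct markers (Aqp2, Aqp3, Fxyd4, Atp6v1g3, Slc4a1 and Slc26a4) summed to 413 to 672 CPM at 2 wk, against 400 to 500 CPM in sedentary libraries. Of these 6 markers 6 had a positive log2 fold change at 2 wk (median 0.165), against 52.1% of all genes. At an unadjusted p under 0.05, 1 of them was higher, a rule met by 4.02% of all genes. The part of the distal convoluted tubule and collecting duct markers in the Clu level was not tested.

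Spp1 (chr5:104435118-104441050, + strand) was abundant and nearly constant in sedentary mice. It had 741, 450, 781 and 649 CPM in 24 h libraries, against 503, 503, 483 and 463 CPM in sedentary libraries. It had 451, 586, 645 and 477 CPM at 1 wk and 482, 435, 529 and 572 CPM at 2 wk. The sedentary spread was 3.98% of the mean and the 24 h spread 22.5%, since 24 h library 2 lay below all sedentary libraries and the other 24 h libraries lay above them. The log2 fold change at 24 h was 0.42 ± 0.14 (SE, edgeR adjusted p = 0.39) and was 0.57 without library 2, with an edgeR adjusted p of 0.0999. It was 0.15 ± 0.14 at 1 wk and 0.05 ± 0.14 at 2 wk. Macrophages can also make osteopontin, and the macrophage markers summed to 108 to 138 CPM at 24 h, against 108 to 123 CPM in sedentary libraries. The largest part of that sum was Csf1r, at 64.4 ± 5.42 CPM at 24 h, against 66.7 ± 6.98 CPM in sedentary mice. Csf1r had a negative log2 fold change (-0.05 ± 0.12), and the other macrophage markers, 5 of 6, had positive ones. The part of macrophages in the Spp1 level was not tested.

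**Figure D2:**
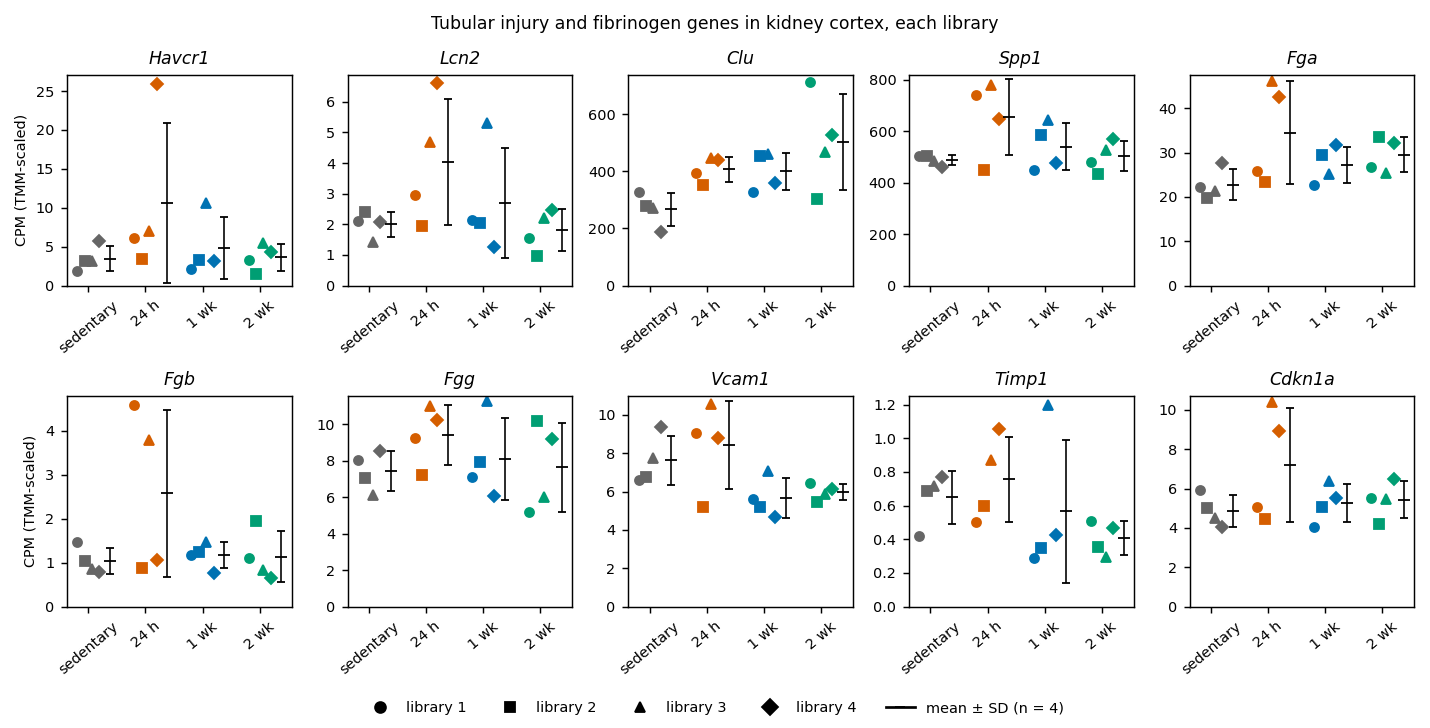
TMM-scaled CPM of each of the 10 genes in the 16 libraries, grouped as sedentary, 24 h, 1 wk and 2 wk. Each point is 1 library and each line a group mean. Havcr1 in 24 h library 4, at 25.9 CPM, lies far above the rest, and Clu is the gene whose 24 h and 1 wk libraries all lie above the sedentary ones.

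The fibrinogen genes lie beside each other on chromosome 3, Fgg at chr3:83007724-83015049 (+ strand), Fga at chr3:83026076-83033627 (+ strand) and Fgb at chr3:83040141-83049863 (- strand). Their promoters are shown because the chains are made together in the liver, where shared control through interleukin-6, C/EBP and HNF1 factors is known mostly from rat and human genes, whereas their transcripts were far from equal here. Each line gives the 250 bases before the RefSeq start site, read 5′ to 3′ on the gene's strand in GRCm38.p6, from chr3:83025903-83026152 (+) for Fga, chr3:83049864-83050113 (-) for Fgb and chr3:83007474-83007723 (+) for Fgg. The RefSeq start of Fga lies inside the GENCODE gene, so that the end of its window overlaps the annotated transcript. Capitals mark matches, on either strand, to CTGGGAA (the core of a class of interleukin-6 response elements), TTCNNNGAA (the palindrome of STAT sites), GTTAAT (the core of HNF1 sites) and TTGCNNAA (the form of C/EBP sites).
Fga: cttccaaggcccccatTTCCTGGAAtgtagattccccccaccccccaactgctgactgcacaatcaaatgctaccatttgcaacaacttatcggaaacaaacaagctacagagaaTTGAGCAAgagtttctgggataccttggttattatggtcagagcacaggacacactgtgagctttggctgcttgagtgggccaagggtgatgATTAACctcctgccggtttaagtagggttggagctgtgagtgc
Fgb: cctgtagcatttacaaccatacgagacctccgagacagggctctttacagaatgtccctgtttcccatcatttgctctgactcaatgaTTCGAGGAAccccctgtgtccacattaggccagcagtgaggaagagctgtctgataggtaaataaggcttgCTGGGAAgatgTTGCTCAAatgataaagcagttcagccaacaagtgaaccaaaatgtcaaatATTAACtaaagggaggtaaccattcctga
Fgg: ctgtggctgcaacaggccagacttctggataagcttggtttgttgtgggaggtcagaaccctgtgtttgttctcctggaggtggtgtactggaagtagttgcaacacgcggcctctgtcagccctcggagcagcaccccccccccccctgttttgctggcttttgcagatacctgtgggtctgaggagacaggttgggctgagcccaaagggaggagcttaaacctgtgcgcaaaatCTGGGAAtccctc
In the Fga window TTCNNNGAA matched at -234 to -226, TTGCNNAA at -135 to -128 on the opposite strand and GTTAAT at -43 to -38 on the opposite strand, counted back from the start site. In the Fgb window TTCNNNGAA matched at -162 to -154, CTGGGAA at -91 to -85, TTGCNNAA at -80 to -73 and GTTAAT at -29 to -24 on the opposite strand. The Fgg window held 1 match, CTGGGAA at -13 to -7. No match overlapped that of another motif. Of 32851 RefSeq promoter windows of the same length, 9.10% held CTGGGAA, 7.02% TTCNNNGAA, 6.43% GTTAAT and 9.56% TTGCNNAA, and a match is a description of the letters only.

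Fga made up most of the fibrinogen counts. It had 26.0, 23.4, 46.3 and 42.6 CPM in 24 h libraries, against 22.2, 19.8, 21.3 and 27.8 CPM in sedentary libraries, and 22.7, 29.5, 25.2 and 31.6 CPM at 1 wk and 26.8, 33.6, 25.5 and 32.3 CPM at 2 wk. Libraries 1 and 2 at 24 h lay inside the sedentary range, and libraries 3 and 4 lay above all others of the 16. Its log2 fold changes were 0.60 ± 0.19 at 24 h, 0.26 ± 0.19 at 1 wk and 0.38 ± 0.18 at 2 wk (SE, edgeR adjusted p = 0.314, 0.923 and 0.686). Without 24 h library 3 the 24 h value was 0.43, and without library 2 it was 0.75.

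Fgb had 4.60, 0.868, 3.78 and 1.05 CPM in 24 h libraries, against 1.46, 1.05, 0.865 and 0.789 CPM in sedentary libraries. It had 1.18, 1.24, 1.48 and 0.766 CPM at 1 wk and 1.12, 1.96, 0.824 and 0.661 CPM at 2 wk. Libraries 1 and 3 of the 24 h group were above all others, and libraries 2 and 4 were inside the sedentary range. The log2 fold change at 24 h was 1.31 ± 0.45 (SE, edgeR adjusted p = 0.39), and 0.87 without library 1. The 24 h libraries high in Fgb were not those high in Fga, except library 3. Library 4 had 42.6 CPM of Fga with 1.05 CPM of Fgb and library 1 had 26.0 CPM of Fga with 4.60 CPM of Fgb. The counts behind Fgb were 31 to 246 per library.

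Fgg had 9.25, 7.21, 11.01 and 10.2 CPM in 24 h libraries, against 8.07, 7.05, 6.12 and 8.53 CPM in sedentary libraries, and 7.10, 7.95, 11.3 and 6.07 CPM at 1 wk and 5.19, 10.2, 6.00 and 9.20 CPM at 2 wk. All groups overlapped. Its log2 fold changes were 0.34 ± 0.21 at 24 h, 0.12 ± 0.21 at 1 wk and 0.04 ± 0.21 at 2 wk (SE, edgeR adjusted p = 0.665, 0.968 and 0.978), and the 24 h fold spanned 0.945 to 1.70 within 2 SE. The antisense transcript Gm30097 overlaps Fgg and had 15 to 63 counts, and since the strand setting of the counting is not given, its reads cannot be told apart from those of Fgg.

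Summed over the chains, fibrinogen transcripts averaged 46.6 ± 13.4 CPM at 24 h, 36.5 ± 3.72 CPM at 1 wk and 38.3 ± 6.66 CPM at 2 wk, against 31.2 ± 4.26 CPM in sedentary mice (SD, n = 4 each). The mean of the logs gave a fold of 1.45 at 24 h, 1.17 at 1 wk and 1.22 at 2 wk over sedentary. None of these passed an exact permutation test of the log2 sums (adjusted p = 0.114 at each duration, over 3 comparisons). Each exercised group overlapped the sedentary one. Per kilobase of exon, Fga exceeded Fgb by a median of 30.3 times over the 16 libraries, with a range of 7.15 to 61.7, and the lowest ratio was in a 24 h library. Fga exceeded Fgg by a median of 2.36 times, with a range of 1.55 to 3.62, and Fgg exceeded Fgb by a median of 12.6 times, with a range of 3.66 to 25.3. The groups overlapped in all of these ratios.

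Liver RNA carries all fibrinogen chains together with much albumin. Of the 10 listed hepatocyte genes, Ahsg, Cps1 and Tat had at most 4, 3 and 1 counts in any library. The other 7 were expressed, with means over all libraries of 144 CPM for Ttr, 25.3 for Serpina1a, 17.6 for Apoc3, 12.3 for Serpina1b, 9.47 for Alb, 8.51 for Apoa2 and 2.04 for F2. The summed hepatocyte list includes genes that kidney also expresses. It was 100 to 350 CPM at 24 h, against 197 to 245 CPM in sedentary libraries. Of the 7 genes tested, 4 had a positive log2 fold change at 24 h and 3 a negative one (median 0.03). Alb had 7.42 ± 1.28 CPM at 24 h, against 10.7 ± 0.46 CPM in sedentary mice (-0.54 ± 0.13, edgeR adjusted p = 0.199). Its 24 h libraries lay below all sedentary ones, a property met in that direction by 3.66% of all genes. The part of liver RNA in the fibrinogen levels was not tested. Platelets carry fibrinogen protein, and their markers summed to 8.33 to 11.4 CPM at 24 h, against 9.76 to 11.2 CPM in sedentary libraries. Most of that sum was Itga2b, with a mean over all libraries of 9.61 CPM, against 0.638 for Pf4 and 0.391 for Ppbp. The sum therefore mainly follows Itga2b, and the part of platelets in the fibrinogen levels was not tested.

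**Figure D3:**
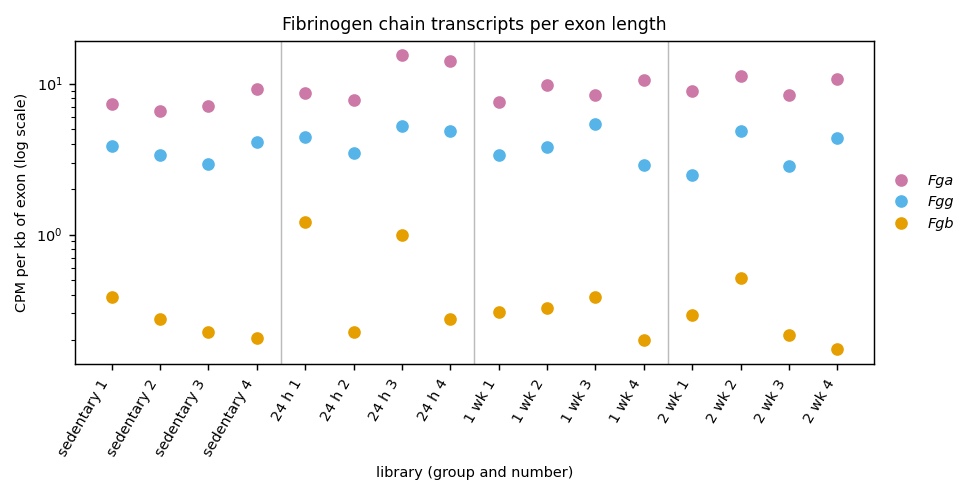
CPM per kilobase of exon (log axis) of Fga, Fgg and Fgb in each of the 16 libraries, grouped as sedentary, 24 h, 1 wk and 2 wk. Fga lies above Fgg and Fgg above Fgb in every library, and the gap to Fgb is narrowest, 7.15 times for Fga, in a 24 h library.

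Vcam1 (chr3:116109949-116129688, - strand) had 9.06, 5.18, 10.6 and 8.82 CPM in 24 h libraries, against 6.62, 6.74, 7.76 and 9.36 CPM in sedentary libraries. It had 5.64, 5.19, 7.10 and 4.70 CPM at 1 wk and 6.42, 5.47, 5.87 and 6.14 CPM at 2 wk. At 2 wk all libraries lay below all sedentary ones, a property met in that direction by 2.61% of all genes, and at 1 wk library 3 alone reached the sedentary range. The log2 fold changes were 0.14 ± 0.18 at 24 h, -0.43 ± 0.18 at 1 wk and -0.35 ± 0.18 at 2 wk (SE, edgeR adjusted p = 0.857, 0.766 and 0.697). The 24 h value was 0.017 without 24 h library 3 and 0.32 without 24 h library 2, and leaving out single sedentary libraries gave 0.082 to 0.26. Endothelial markers (Pecam1, Cdh5, Kdr, Emcn, Ehd3 and Tek) summed to 138 to 169 CPM at 1 wk and 140 to 196 CPM at 2 wk, against 178 to 217 CPM in sedentary libraries. Of these 6 markers 0 had a positive log2 fold change at 1 wk or 2 wk. Macrophage markers, also 0 of 6 positive at both durations, summed to 88.9 to 112 CPM at 1 wk and 89.5 to 118 CPM at 2 wk, against 108 to 123 CPM in sedentary libraries. Their part in the Vcam1 level was not tested.

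Timp1 (chrX:20870166-20874735, + strand) was the least abundant of the 10 genes by counts. It had 0.504, 0.595, 0.869 and 1.05 CPM in 24 h libraries, against 0.418, 0.690, 0.717 and 0.768 CPM in sedentary libraries. It had 0.288, 0.350, 1.20 and 0.423 CPM at 1 wk and 0.509, 0.356, 0.296 and 0.469 CPM at 2 wk. All groups overlapped, and the highest library was again 1 wk library 3. The log2 fold changes were 0.23 ± 0.38 at 24 h, -0.22 ± 0.39 at 1 wk and -0.67 ± 0.39 at 2 wk (SE, edgeR adjusted p = 0.902, 0.968 and 0.724), and some moved when single libraries were left out. The 1 wk value was -0.86 without 1 wk library 3 and -0.00011 without 1 wk library 1, and over all libraries left out in turn the 24 h value ranged over 0.027 to 0.385. The 2 wk fold spanned 0.364 to 1.09 within 2 SE, which included both directions. Syn1, which overlaps Timp1 on the other strand, had 0 to 15 counts.

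Cdkn1a (chr17:29090976-29100727, + strand) had 5.08, 4.46, 10.4 and 8.91 CPM in 24 h libraries, against 5.91, 5.004, 4.51 and 4.03 CPM in sedentary libraries. It had 4.06, 5.09, 6.41 and 5.52 CPM at 1 wk and 5.50, 4.22, 5.49 and 6.51 CPM at 2 wk. Libraries 3 and 4 of the 24 h group were above all others, as they were for Fga, and libraries 1 and 2 lay inside the sedentary range. The log2 fold changes were 0.57 ± 0.23 at 24 h, 0.11 ± 0.23 at 1 wk and 0.15 ± 0.23 at 2 wk (SE, edgeR adjusted p = 0.48, 0.975 and 0.902). Without 24 h library 3 the 24 h value was 0.34. The highest sum of fibroblast and smooth muscle markers, 183 CPM, was also in 24 h library 3, and their part in the Cdkn1a level was not tested.

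The transcripts spanned a wide range of levels per length. In sedentary mice Spp1 had 296 ± 11.8 CPM per kilobase of exon and Clu 77.5 ± 16.7, followed by Fga at 7.56 ± 1.16 and Fgg at 3.56 ± 0.52 (SD, n = 4). Havcr1 at 1.49 ± 0.70 and Cdkn1a at 1.37 ± 0.23 CPM per kilobase did not differ beyond their spread. The same held for Vcam1 at 0.859 ± 0.143, Lcn2 at 0.760 ± 0.159 and Timp1 at 0.730 ± 0.176. Fgb was lowest, at 0.273 ± 0.079 CPM per kilobase.

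Between durations, none of the 10 genes passed for 1 wk against 24 h (0% of all genes passed), 2 wk against 24 h (0.0124%, 2 genes) or 2 wk against 1 wk (0%). Over all 4 groups together none of the 10 passed either (0.0124% of all genes), and the smallest p was that of Clu (edgeR adjusted p = 0.335). At 1 wk 0 of 10 log2 fold changes over 24 h were positive, against 54.4% of all genes, and the median was -0.449, whereas that of all genes was 0.015. Fgb and Vcam1 were lower at an unadjusted p under 0.05, 2 genes of 10, against 4.72% of all genes, a number that was 7 without 24 h library 2 or 1 wk library 3 and 1 without 24 h library 3 or 1 wk library 4. At 2 wk 1 of 10 was positive over 24 h, against 52.2% of all genes, with a median of -0.455, and 6 were lower at an unadjusted p under 0.05, a rule met by 4.32% of all genes. These 6 were Havcr1 (log2 fold change -1.56 ± 0.65), Lcn2 (-1.18 ± 0.41), Spp1 (-0.38 ± 0.14), Fgb (-1.16 ± 0.44), Vcam1 (-0.50 ± 0.18) and Timp1 (-0.90 ± 0.39; SE). Their edgeR adjusted p lay between 0.415 and 0.496. The number was 2 without 24 h library 3, 3 without 24 h library 4 and 1 with voom in place of edgeR. Clu was the exception at 2 wk, with a log2 fold change of 0.30 ± 0.20 over 24 h. Both comparisons share the 24 h libraries with the comparison of 24 h against sedentary, so these values are not independent of that comparison. The 10 genes were also chosen with earlier results of these data known.

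Library by library, the 24 h group was uneven. In 24 h library 3 all 10 genes exceeded every sedentary library, in library 4 it was 8, in library 1 it was 6 and in library 2 it was 1. At 1 wk the numbers were 1, 3, 8 and 2 for libraries 1 to 4, and at 2 wk they were 1, 3, 2 and 6. In the exercised libraries 22.5% to 31.4% of all genes tested lay above every sedentary library. Library 3 of the 24 h group was highest of the 16 for 4 genes, 24 h library 4 for 2 and 1 wk library 3 for 2. Both library 3s were also those with the highest urothelial markers of their groups, and their part in these counts was not tested. In 24 h library 4, where 8 genes exceeded every sedentary library, urothelial markers were 1.12 CPM.

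**Figure D4:**
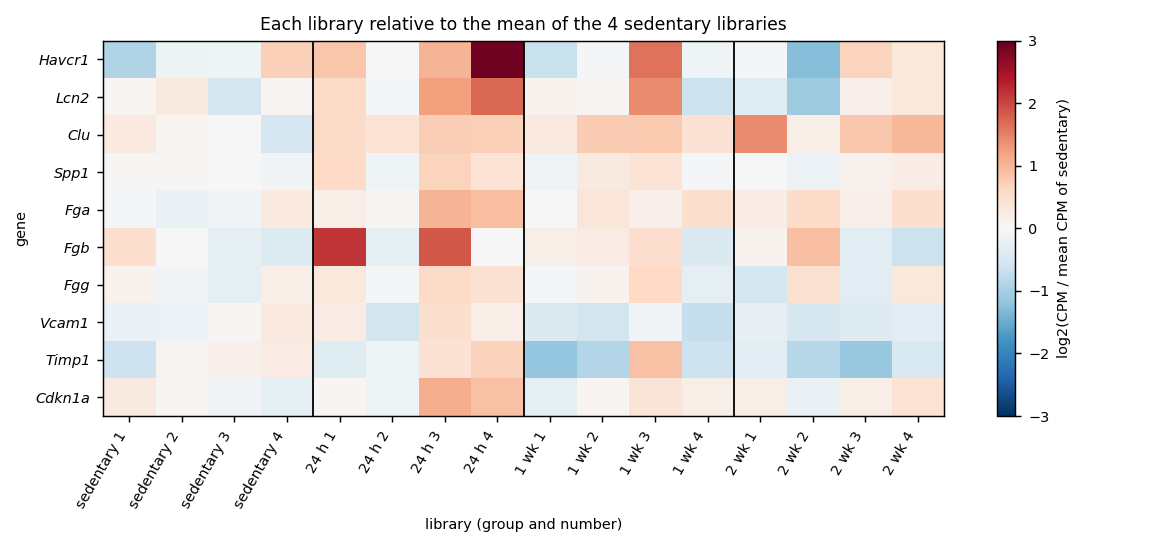
Log2 of each library's CPM over the sedentary mean for the 10 genes (rows) in the 16 libraries (columns, grouped as sedentary, 24 h, 1 wk and 2 wk). In 24 h library 3 all 10 genes lie above every sedentary library, and in 24 h library 2 only 1 does.

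Pairs of the 10 genes were correlated over the 16 libraries on log2 CPM, with p from 100000 permutations adjusted over 45 pairs. Of these, 42 had a positive Pearson r, 16 had an adjusted p under 0.05 by Pearson and 4 by both Pearson and Spearman. For Havcr1 and Lcn2, r was 0.854 (permutation adjusted p = 0.00225) and rho 0.703 (permutation adjusted p = 0.0459). The r was 0.693 without the 2 libraries farthest from the Havcr1 median and 0.804 after group means were subtracted. Lcn2 and Spp1 had r = 0.785 (permutation adjusted p = 0.0081) and rho = 0.785 (permutation adjusted p = 0.0207), with 0.787 without the 2 farthest libraries and 0.693 within groups. Spp1 and Cdkn1a had r = 0.757 (permutation adjusted p = 0.0138) and rho = 0.738 (permutation adjusted p = 0.0344), with 0.831 and 0.682. Vcam1 and Timp1 had r = 0.667 (permutation adjusted p = 0.0295) and rho = 0.688 (permutation adjusted p = 0.0467), with 0.603 and 0.531. Without 24 h library 3, in which all 10 genes were high, 6 pairs had a Pearson adjusted p under 0.05 in place of 16, and 0 had a Spearman adjusted p under 0.05 in place of 4. The permutation adjusted p of Pearson's r was then 0.00585 for Havcr1 and Lcn2, 0.0315 for Lcn2 and Spp1, 0.0654 for Spp1 and Cdkn1a and 0.0694 for Vcam1 and Timp1, and the lowest Spearman permutation adjusted p was 0.0801, for Lcn2 and Spp1.

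Clu took part in none of the 16 pairs, and its closest partner was Cdkn1a with r = 0.532 (permutation adjusted p = 0.0882) and rho = 0.656 (permutation adjusted p = 0.0518). With Havcr1, Clu had r = 0.269 (permutation adjusted p = 0.366) and rho = 0.462 (permutation adjusted p = 0.166). None of the 3 pairs of fibrinogen chains, neighbours in the genome, had an adjusted p under 0.05. For Fga and Fgb r was 0.281 (permutation adjusted p = 0.356), for Fga and Fgg 0.531 (permutation adjusted p = 0.0865) and for Fgb and Fgg 0.521 (permutation adjusted p = 0.0882). Their rho were 0.0765 (permutation adjusted p = 0.896), 0.462 (permutation adjusted p = 0.166) and 0.529 (permutation adjusted p = 0.131), and r was -0.00962, 0.288 and 0.414 without the 2 farthest libraries.

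**Figure D5:**
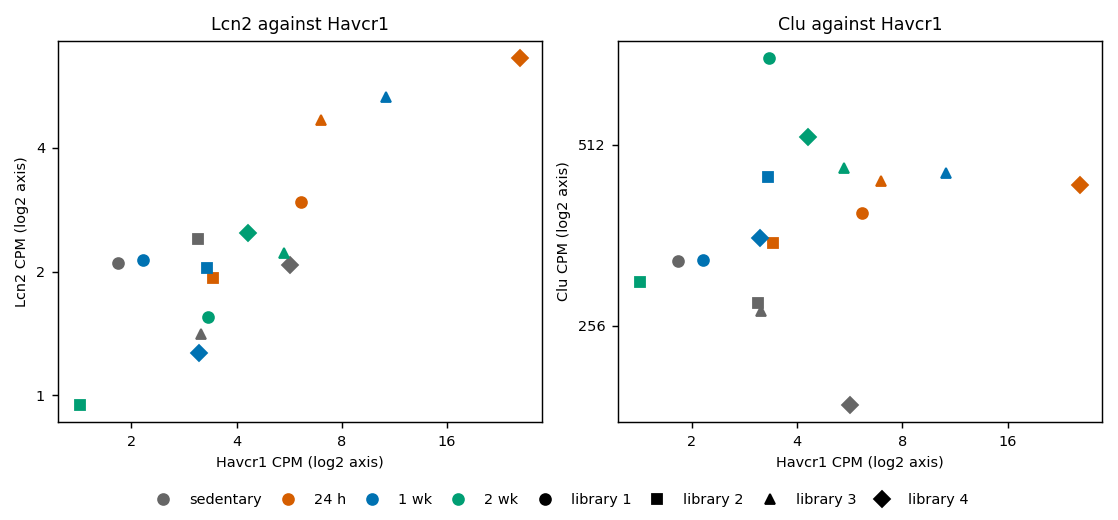
Lcn2 against Havcr1 (left) and Clu against Havcr1 (right), in log2 CPM, with 1 point per library coloured by group. Lcn2 and Havcr1 lie along a line (r = 0.854) with 24 h library 4 at its upper end, whereas Clu is spread at every level of Havcr1 (r = 0.269).

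Among 12012 genes with a mean of at least 1 CPM, those nearest in pattern over the 16 libraries were named by Spearman's rho, as a description. Nearest to Havcr1 were Rem1 (rho 0.871), Ifitm1 (0.856) and Dpt (0.856), and nearest to Lcn2 were Angptl6 (0.941) and Cd14 (0.921). Clu was nearest to Mycbpap (0.912), Rhbg (0.912), an ammonium transporter, and Krt7 (0.909), a keratin. Spp1 was nearest to Tmem171 (0.921), Wrap73 (0.918) and Fbxo44 (0.885). Vcam1 was nearest to Ifitm3 (0.929), Sparc (0.900) and Colec12 (0.897), Timp1 to Irf7 (0.800), Stbd1 (0.800) and Ifitm3 (0.791), and Cdkn1a to Npdc1 (0.853), Acta2 (0.853) and Tmem221 (0.826). For the fibrinogen sum the highest rho was 0.768, for Mapkapk2, Chka and Trim39.

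Other genes of the same pathways were read from lists, and in none of them did a gene pass at an adjusted p of 0.05 at any duration against sedentary. Of 24 other tubular injury and repair genes tested, 17 had a positive log2 fold change at 24 h, 12 at 1 wk and 12 at 2 wk, with medians of 0.08, 0.01 and -0.01. By smallest p, Tnfrsf12a, the TWEAK receptor, had 28.8 ± 7.89 CPM at 24 h, against 18.9 ± 2.01 CPM in sedentary mice (log2 fold change 0.61 ± 0.18, edgeR adjusted p = 0.298). Atf3, a stress-induced transcription factor, had 2.18 ± 1.48 CPM at 24 h, against 0.939 ± 0.233 CPM in sedentary mice (1.20 ± 0.37, edgeR adjusted p = 0.322). At 2 wk the smallest p was that of Krt7, which was also near Clu in pattern, at 126 ± 26.0 CPM, against 90.5 ± 10.2 CPM in sedentary mice (0.48 ± 0.13, edgeR adjusted p = 0.36).

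Of 17 acute phase and interleukin-6 signalling genes tested, 13 were positive at 24 h, 6 at 1 wk and 11 at 2 wk, with medians of 0.13, -0.04 and 0.04. Complement C3 had 18.8 ± 5.96 CPM at 24 h, against 11.1 ± 2.05 CPM in sedentary mice (0.76 ± 0.19, edgeR adjusted p = 0.192), and Stat3, the factor that interleukin-6 activates, had 51.2 ± 3.68 CPM, against 43.3 ± 4.00 CPM in sedentary mice (0.24 ± 0.10, edgeR adjusted p = 0.496). The acute phase genes Saa1, Saa2, Saa3 and Orm1 had at most 4, 1, 4 and 8 counts per library, and Il6 had at most 3, so the filter removed them. Fgl2, a fibrinogen-like prothrombinase, had 1.14 ± 0.12 CPM at 1 wk, against 2.17 ± 0.29 CPM in sedentary mice (-0.92 ± 0.21, edgeR adjusted p = 0.378). Its 1 wk and sedentary libraries did not overlap, a property met in that direction by 2.51% of all genes.

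Of 20 genes of clotting and fibrinolysis, 10 were positive at 24 h, 4 at 1 wk and 6 at 2 wk, with medians of -0.00413, -0.13 and -0.10. F13b, the carrier subunit of the factor that crosslinks fibrin, had 128 ± 3.95 CPM at 24 h, against 170 ± 9.28 CPM in sedentary mice (-0.42 ± 0.10, edgeR adjusted p = 0.184). These groups did not overlap, which held in that direction for 3.66% of all genes. Itgb3, a subunit of the integrins that bind fibrinogen and osteopontin, had 1.40 ± 0.47 CPM at 2 wk, against 0.733 ± 0.189 CPM in sedentary mice (0.93 ± 0.25, edgeR adjusted p = 0.357). Thrombomodulin, Thbd, had 12.8 ± 1.12 CPM at 1 wk, against 17.1 ± 2.25 CPM in sedentary mice (-0.42 ± 0.15, edgeR adjusted p = 0.671).

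Of 10 metalloproteinases and inhibitors tested, 7 were positive at 24 h, 2 at 1 wk and 3 at 2 wk. Mmp13, a collagenase, had 0.736 ± 0.515 CPM at 24 h, 0.641 ± 0.235 CPM at 1 wk and 0.486 ± 0.161 CPM at 2 wk, against 1.62 ± 0.20 CPM in sedentary mice. Its libraries lay below the sedentary ones at all 3 durations, with log2 fold changes of -1.11 ± 0.35, -1.34 ± 0.36 and -1.70 ± 0.36 (SE, edgeR adjusted p = 0.329, 0.479 and 0.23). Such a lack of overlap was met in that direction by 3.66%, 2.51% and 2.61% of all genes. Of 17 p53 targets and cell cycle inhibitors, 11 were positive at 24 h, 9 at 1 wk and 9 at 2 wk, with medians of 0.12, 0.01 and 0.01. Sesn2, a p53 target with the smallest p of the list at 24 h, had 57.4 ± 7.91 CPM, against 75.0 ± 14.9 CPM in sedentary mice (-0.38 ± 0.16, edgeR adjusted p = 0.496). Its sign was opposite to that of Cdkn1a, whereas 11 of the 17 shared the sign of Cdkn1a. At an unadjusted p under 0.05, 1 gene of the list was higher at 24 h and 2 were lower, against 4.49% and 4.43% of all genes. Zmat3, of smallest p at 2 wk, was positive at 24 h (0.23 ± 0.11) and at 2 wk (0.29 ± 0.11, edgeR adjusted p = 0.545 and 0.56).

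Of 14 adhesion and NF-kB genes, 9 were positive at 24 h, 4 at 1 wk and 4 at 2 wk, with medians of 0.04, -0.11 and -0.06. Relb, an NF-kB subunit, had 5.32 ± 0.78 CPM at 24 h, against 4.01 ± 0.65 CPM in sedentary mice (0.41 ± 0.14, edgeR adjusted p = 0.39). Itgb7, a subunit of an integrin that binds Vcam1 protein, had 1.39 ± 0.30 CPM at 2 wk, against 2.42 ± 0.61 CPM in sedentary mice (-0.79 ± 0.23, edgeR adjusted p = 0.374), and Icam2, an endothelial adhesion molecule, had 7.12 ± 0.75 CPM, against 9.35 ± 1.23 CPM in sedentary mice (-0.39 ± 0.16, edgeR adjusted p = 0.617). Of 17 receptors and partners of the 10 genes, 10 were positive at 24 h, 6 at 1 wk and 9 at 2 wk. Itga9, whose integrin binds osteopontin and Vcam1 protein, had 7.11 ± 0.82 CPM at 1 wk, against 10.3 ± 1.36 CPM in sedentary mice (-0.54 ± 0.12, edgeR adjusted p = 0.378). These libraries did not overlap, a property met in that direction by 2.51% of all genes.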

How the data were processed

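What the authors deposited is a table of raw counts per gene, whole numbers without normalization, of which 16 libraries are used. The submitters' processing notes name FastQC 0.10.1, HTSeq 0.10.0 and the builds GRCm38 and mm10. Aligner, annotation release and strand setting: not given in the sources used here. Libraries were stranded, per the labels' protocols. The table has 8 further columns of counts that match no sample and were not used. Of the identifiers, 52133 (94.1%), with 99.4% of counts, have a symbol in GENCODE M21.

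The test was that of edgeR 4.0.16 (R 4.3.3; filterByExpr by group, TMM, robust quasi-likelihood F-test, 16 libraries in 1 fit, Benjamini-Hochberg over 16126 genes, threshold 0.05). DESeq2 1.42.0 and voom in limma 3.58.1 were alternatives. Values after ± are SD for CPM and SE for log2 fold changes. Depth was 39766260 to 66852397 counts, and no pair of libraries in a group agreed within sampling noise. Groups came from titles and treatment labels. The scripts were tested on simulated counts. The 10 genes, the lists and the rule for named genes were chosen with earlier results of these data known. By that rule all 10 genes, the 3 genes nearest in pattern to each (fibrinogen chains summed) and at most 2 genes of smallest p per list and comparison were named. A gene that this rule names is not reported here. Promoter sequences are from RefSeq (GRCm38.p6), which held 8 of the 10 genes.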

Additional observations from a re-analysis of the deposited data

Results flagged for a closer look

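In 44 groups of 4 libraries, 4 had an end library whose gap to its nearest neighbour took over 0.829 of the group's range, Dixon's 95% critical value. Chance gives about 1 such group in 20 (5%). Havcr1 was 25.9 CPM in 24 h library 4, while the other 24 h libraries had 3.42 to 6.97 CPM. Havcr1 was 10.7 CPM in 1 wk library 3, while the other 1 wk libraries had 2.15 to 3.30 CPM. Timp1 was 1.20 CPM in 1 wk library 3, while the others had 0.288 to 0.423 CPM. The fibrinogen sum was 30.9 CPM in 1 wk library 1, below the other 1 wk libraries, whose highest was 38.67 CPM.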

How the results depend on the processing

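The number of the 10 genes called was 0 in all comparisons and alternatives except DESeq2, which called 1 (Clu) at 2 wk against sedentary and 1 over all 4 groups, and the fit without 2 wk library 2, which called 1 (Clu) at 2 wk. At 24 h no alternative turned the sign of any of the 10 log2 fold changes. Counts of calls over all genes moved. DESeq2 gave 77 at 24 h, 14 at 1 wk and 35 at 2 wk against sedentary, 59 for 1 wk and 36 for 2 wk against 24 h, 4 for 2 wk against 1 wk and 160 over all 4 groups. Voom gave 49, 6 and 6 against sedentary, 1 for 2 wk against 1 wk and 33 over all 4 groups. Without the filter there were 9 at 24 h, 5 at 2 wk, 8 for 2 wk against 24 h and 10 over all 4 groups. A minimum of 1 CPM in 4 libraries gave 4 for 2 wk against 24 h and removed Timp1, and library totals in place of TMM gave 4 there and 2 at 24 h. Fits of the compared groups alone gave 28 at 24 h and 2 at 2 wk. Leaving out 24 h library 3 and 1 wk library 3 together, an alternative chosen after seeing the data, gave 3 at 2 wk and 1 over all 4 groups. With the replicate number as a block there were 5 at 2 wk against sedentary, 11 for 2 wk against 24 h and 5 over all 4 groups, and 0 of the 10 genes. After group means were subtracted, same-numbered libraries of different groups had a median correlation of 0.053, against -0.0222 for libraries of other numbers. By the mean over the other groups, 7 of 16 libraries correlated best with their own number. With each library left out in turn, all-gene calls ranged over 0 to 5 at 24 h, 0 to 1 at 1 wk, 0 to 8 at 2 wk, 0 to 2 for 1 wk against 24 h, 0 to 7 for 2 wk against 24 h and 0 to 5 over all 4 groups. Correlated pairs numbered 6 without 24 h library 3.

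Estimates near 0 changed sign. Voom gave -0.15 for Fgb at 2 wk and 0.038 for Clu at 1 wk against 24 h. Without both libraries highest in urothelial markers, the 1 wk values were -0.26 for Havcr1, -0.14 for Lcn2 and -0.079 for Fgg. Leaving out single libraries gave, at 1 wk, -0.26 to 0.84 for Havcr1, -0.14 to 0.66 for Lcn2 and -0.080 to 0.24 for Fgg. At 2 wk it gave -0.20 to 0.42 for Havcr1, -0.36 to 0.066 for Lcn2, -0.017 to 0.11 for Spp1, -0.28 to 0.36 for Fgb and -0.13 to 0.19 for Fgg. For Clu at 1 wk against 24 h it gave -0.10 to 0.054. The causes were not tested.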
